A study of Homo sapiens with 12 samples.

Results

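The genes described here are 7 regulators and targets of the anaphase-promoting complex (APC/C): its activators CDC20 and FZR1, its inhibitor FBXO5, its ubiquitin-conjugating enzymes UBE2C and UBE2S, and the securin PTTG1 with the protease it restrains, separase (ESPL1). They were chosen by gene symbol for their roles, with earlier results of these data known, so their calls are not an independent test. All 7 stood on a single row in both deposited tables, among 23617 symbols for Granta-519 and 23615 for JeKo-1. RNA was sequenced from Granta-519 and JeKo-1, established human mantle cell lymphoma lines; this cancer of B cells typically carries a translocation that drives the cyclin D1 gene, CCND1. In each line, 3 libraries came from cells given a lentiviral shRNA that silences cyclin D1 (shCycD1) and 3 from cells given a control shRNA (shCtrl), with puromycin selection of all of them. Granta-519 was grown in RPMI and JeKo-1 in DMEM, each with 10% FBS. Each arm carries 1 shRNA label, so the effect of the target and of the hairpin itself cannot be told apart, and the time between infection and harvest is not given in the sources used here.

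The APC/C is a ubiquitin ligase that marks mitotic proteins for destruction by the proteasome. CDC20 activates it when the spindle checkpoint is satisfied, and FZR1 (also called CDH1) takes over in late mitosis and keeps it active through G1, until FBXO5 (EMI1) shuts it off ahead of DNA replication. UBE2C starts ubiquitin chains on APC/C substrates and UBE2S lengthens them. Loss of securin frees separase, which cuts cohesin and lets sister chromatids part, and CDC20, UBE2C and several other APC/C regulators are themselves transcribed mainly in G2 and mitosis.

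The promoters of 4 members are printed as examples of genes that moved unequally: CDC20, PTTG1 and ESPL1 were lower in both lines, and FZR1 was not. FBXO5 and UBE2S, also lower in both lines, are not printed, and their matches are given below. Each is the 250 bases before the first listed RefSeq start (GRCh38.p14, plus strand of the chromosome), 5′ to 3′. Capitals mark exact matches, on either strand, to TTTGAA (the cell cycle genes homology region, CHR, read as TTCAAA on the other strand) or to CCAAT (the NF-Y box, read as ATTGG). The windows lie at chr1:43358731-43358980 for CDC20, chr5:160421605-160421854 for PTTG1, chr12:53268049-53268298 for ESPL1 and chr19:3506061-3506310 for FZR1.
CDC20: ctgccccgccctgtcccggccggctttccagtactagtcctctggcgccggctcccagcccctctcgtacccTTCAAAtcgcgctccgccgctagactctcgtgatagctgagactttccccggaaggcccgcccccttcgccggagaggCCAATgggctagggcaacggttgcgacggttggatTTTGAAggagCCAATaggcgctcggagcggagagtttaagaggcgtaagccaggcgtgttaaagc
PTTG1: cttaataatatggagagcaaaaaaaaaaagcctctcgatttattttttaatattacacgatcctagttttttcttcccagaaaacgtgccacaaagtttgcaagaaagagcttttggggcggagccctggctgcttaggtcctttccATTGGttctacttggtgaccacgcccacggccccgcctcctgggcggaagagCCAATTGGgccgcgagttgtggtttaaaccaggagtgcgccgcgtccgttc
ESPL1: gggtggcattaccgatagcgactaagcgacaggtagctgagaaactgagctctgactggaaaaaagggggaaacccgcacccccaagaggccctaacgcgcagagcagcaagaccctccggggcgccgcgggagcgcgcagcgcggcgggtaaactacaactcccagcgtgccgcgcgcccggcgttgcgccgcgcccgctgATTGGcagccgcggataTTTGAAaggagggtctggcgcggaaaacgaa
FZR1: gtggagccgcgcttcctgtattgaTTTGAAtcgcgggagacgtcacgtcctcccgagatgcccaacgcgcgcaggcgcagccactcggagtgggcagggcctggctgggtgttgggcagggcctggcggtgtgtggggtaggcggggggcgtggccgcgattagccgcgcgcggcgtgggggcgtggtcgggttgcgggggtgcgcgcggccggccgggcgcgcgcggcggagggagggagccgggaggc

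In CDC20, a TTTGAA at 65 to 60 bases before the start was followed by a CCAAT at 55 to 51, with a further CCAAT at 100 to 96 and a reverse TTTGAA at 178 to 173. ESPL1 had a reverse CCAAT at 48 to 44 and a TTTGAA at 31 to 26 bases before its start. PTTG1 had CCAAT matches at 103 to 99 and, overlapping, at 51 to 47 and 48 to 44, and no TTTGAA. The FZR1 window held 1 match, a TTTGAA far upstream at 226 to 221, and no CCAAT. Of the members not printed, FBXO5 had neither word in its first listed window. Its other window held 4 CCAAT matches and a reverse TTTGAA at 40 to 35. UBE2S had 1 reverse CCAAT, far upstream at 191 to 187, and no TTTGAA. The part of these words in the members' changes was not tested. Of the 6 members with a RefSeq promoter entry, 4 (CDC20, FZR1, FBXO5 and ESPL1) had TTTGAA and 5 (CDC20, FBXO5, UBE2S, PTTG1 and ESPL1) had CCAAT in at least 1 window, and these 6 members have 9 windows between them. Among all 34788 promoter windows of this length, 13.3% held TTTGAA and 32.0% held CCAAT. The E2F words TTTGGCGC, TTTCCCGC, TTTCGCGC and TTTGCCGC occurred in no member and in 2.78% of all windows. UBE2C was matched to no entry.

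All values are RPKM, reads scaled to gene length and to the size of the library, taken out of the deposited logs. Changes are log2(RPKM + 0.5), shCycD1 minus shCtrl, and a call is an adjusted p under 0.05 (Benjamini-Hochberg) from limma fitted to all genes at 1 RPKM or more in at least 3 of a line's 6 libraries, or 12668 (Granta-519) and 11866 (JeKo-1) genes. Log2 values across genes correlated at r of 0.981 to 0.988 within groups and 0.954 to 0.962 between groups in Granta-519, and at 0.968 to 0.974 and 0.881 to 0.898 in JeKo-1. The series calls the libraries biological replicates, and p-values measure the spread between them. The natural log was tested on the values for Granta-519 and is inferred for JeKo-1, and which gene length JeKo-1 values were scaled to is not settled, so levels are compared neither between lines nor between genes. If 1 step of the Granta-519 values is 1 read, those libraries hold 17600000 to 34200000 reads, which is not settled, and the depth of JeKo-1 is unknown. B-cell and mantle cell lymphoma markers summed to 2085 to 2157 RPKM in shCycD1 and 2292 to 2395 RPKM in shCtrl in Granta-519, where 1 of the 7 (CD5) was under 1 RPKM in all libraries. They summed to 1265 to 1432 RPKM in shCycD1 and 911 to 1048 RPKM in shCtrl in JeKo-1. Of 5 T and NK cell markers, 4 were under 1 RPKM in every library of both lines, and the 5 summed to 0.755 to 0.885 RPKM in shCycD1 and 0.661 to 1.20 RPKM in shCtrl in Granta-519, and to 0.766 to 1.05 RPKM in shCycD1 and 0.826 to 1.49 RPKM in shCtrl in JeKo-1. Myeloid markers (4) summed to 40.8 to 47.4 RPKM in shCycD1 and 46.6 to 52.7 RPKM in shCtrl in Granta-519, and to 2.1 to 2.41 RPKM in shCycD1 and 1.84 to 2.26 RPKM in shCtrl in JeKo-1. Most of the Granta-519 sum was CSF1R, which averaged 41.9 RPKM in shCycD1 and 46.8 RPKM in shCtrl. Epithelial and fibroblast markers (6) summed to 538 to 622 RPKM in shCycD1 and 563 to 636 RPKM in shCtrl in Granta-519, and to 153 to 178 RPKM in shCycD1 and 143 to 174 RPKM in shCtrl in JeKo-1. Most of these sums was VIM, which averaged 575 RPKM in shCycD1 and 593 RPKM in shCtrl in Granta-519. In JeKo-1 VIM averaged 163 and 157 RPKM. In each line 3 of the 6 were under 1 RPKM in all libraries. The part of these marker differences in the members' changes was not tested.

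CCND1, the target of the hairpin, averaged 268 ± 47.3 RPKM in Granta-519 shCycD1 and 947 ± 87.2 RPKM in shCtrl (SD, n = 3 each), a log2 change of -1.83 (adjusted p = 0.000257). In JeKo-1 it was 65.9 ± 1.39 RPKM in shCycD1 and 347 ± 42.3 RPKM in shCtrl, a log2 change of -2.38 (adjusted p = 1.96e-06). Every shCycD1 library was below every shCtrl library in both lines.

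The members fell together, with 1 exception. In Granta-519 all 7 were called lower and 0 higher in shCycD1, where 18.2% of tested genes were called lower and 22.4% higher. In JeKo-1, 6 were called lower and FZR1 was called higher, against backgrounds of 27.8% lower and 36.7% higher; 1 of the 6, ESPL1, passed the filter through its shCtrl libraries alone. The median log2 change of the members was -1.08 in Granta-519 and -2.57 in JeKo-1, beside 0.03 and 0.09 over all genes tested. In both lines the 3 shCycD1 libraries did not overlap the 3 shCtrl libraries for any member, as was so for 54.0% (Granta-519) and 69.6% (JeKo-1) of tested genes. These are bulk samples, so fewer cells in G2 and mitosis and less RNA per cell cannot be told apart. Scaling the libraries by their ERCC spike-in sums (synthetic transcripts added to each sample) moved the median change over all genes, to 0.70 (Granta-519) and 0.21 (JeKo-1). With that scaling, calls stood at 2 lower (CDC20 and UBE2C) in Granta-519, where FZR1 turned to 0.39 (adjusted p = 0.259), and at 5 lower and 0 higher in JeKo-1. Over all genes it called 168 lower and 7018 higher of 12668 in Granta-519, and 976 lower and 2398 higher of 11866 in JeKo-1. The spike-in sums were 42458 to 49079 RPKM in shCycD1 and 62352 to 103797 RPKM in shCtrl in Granta-519, and 34611 to 58959 RPKM in shCycD1 and 38165 to 59248 RPKM in shCtrl in JeKo-1.

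**Figure D1:**
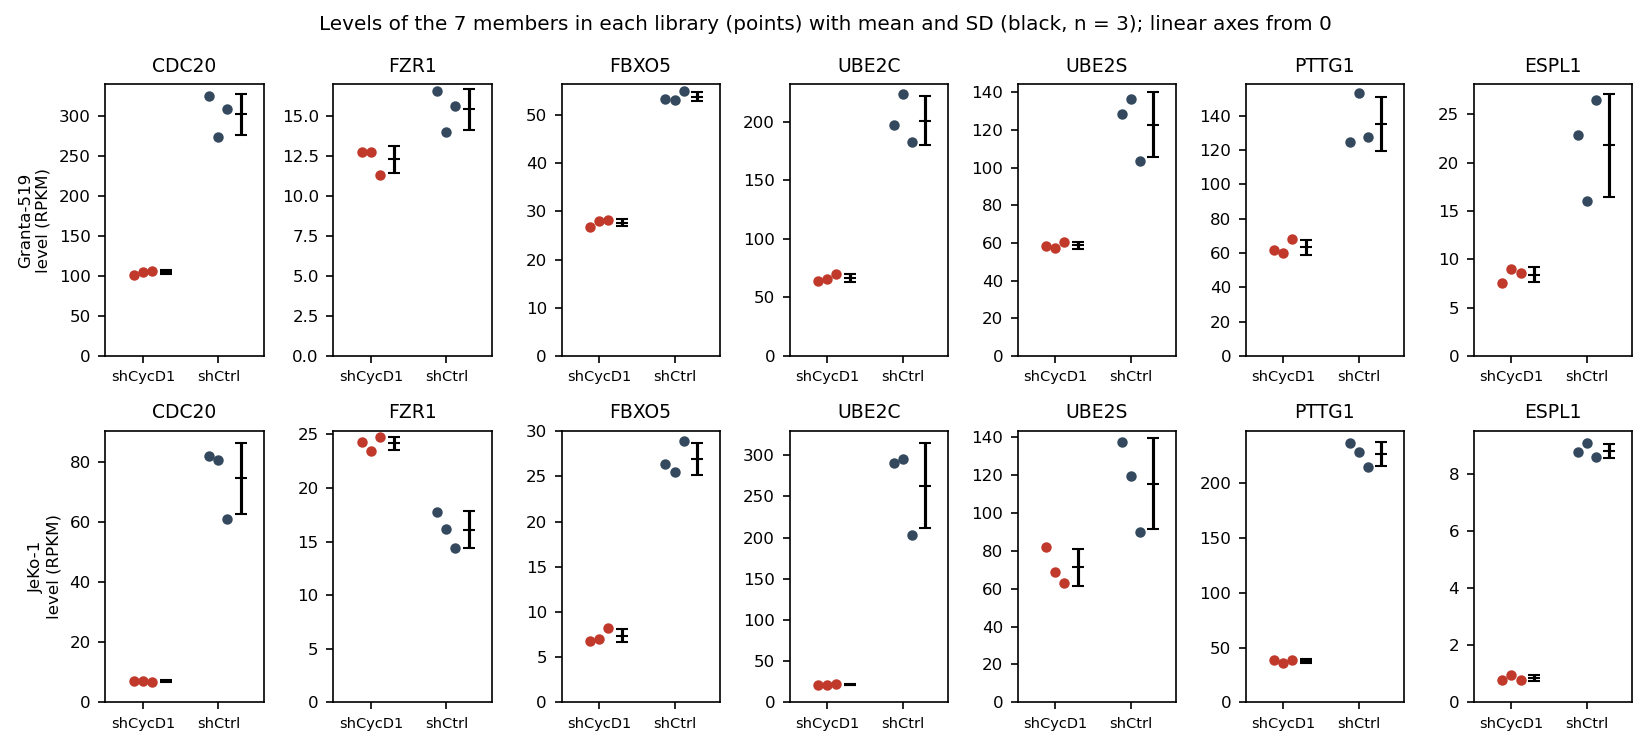
RPKM, on linear axes from 0, of each of the 7 members in every library, shCycD1 left of shCtrl, in Granta-519 and JeKo-1, with points for libraries and black marks for the group mean with its SD (n = 3). The shCycD1 libraries lie below the shCtrl libraries in every panel except FZR1 in JeKo-1, where they lie above them; with spike-in scaling the FZR1 change in Granta-519 turns to 0.39 and is not called.

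CDC20 is the activator that brings the APC/C to securin and the mitotic cyclins. In Granta-519, CDC20 stood at 102, 105 and 106 RPKM in shCycD1, against 324, 274 and 308 RPKM in shCtrl. The shCycD1 libraries lay close together and all below the lowest shCtrl library, with a mean at 34.6% of the shCtrl mean, and CDC20 fell by 1.52 on the log2 scale (± 0.08 SE, limma adjusted p = 0.000149), or 0.79 with spike-in scaling. In JeKo-1 the values were 7.27, 7.16 and 6.88 RPKM in shCycD1, against 81.8, 80.7 and 60.8 RPKM in shCtrl. The shCycD1 libraries lay at 9.54% of the shCtrl mean, and CDC20 fell by 3.29 ± 0.12 (adjusted p = 1.63e-06). A more negative change was found for 0.450% of genes tested (Granta-519) and 0.514% (JeKo-1). Read as log2 rather than natural log, the JeKo-1 change would be -2.37.

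FZR1, the activator of late mitosis and G1, behaved differently. It stood at 12.8, 12.7 and 11.3 RPKM in Granta-519 shCycD1, against 16.5, 14.0 and 15.6 RPKM in shCtrl. All 3 shCycD1 libraries were below the shCtrl libraries, a small fall of 0.31 on the log2 scale (± 0.09 SE, adjusted p = 0.0329), which turned to 0.39 (adjusted p = 0.259) with spike-in scaling. The Granta-519 call was also lost with any library left out except shCtrl replicate 2 (adjusted p of 0.0597 to 0.114). In JeKo-1 FZR1 stood at 24.3, 23.5 and 24.7 RPKM in shCycD1, against 17.8, 16.2 and 14.4 RPKM in shCtrl. All shCycD1 libraries were above the shCtrl libraries, with a mean at 149.9% of shCtrl, and FZR1 rose by 0.57 on the log2 scale (± 0.09 SE, adjusted p = 0.00131), a call that was lost with GC correction (0.0065, adjusted p = 0.938) and with spike-in scaling (0.70, adjusted p = 0.102). The longest FZR1 transcript has a GC content of 64.0%, the highest of the members, beside medians of 48.6% over the genes tested in Granta-519 and 48.2% in JeKo-1. Of 10653 genes tested in both lines, 198 were called lower in Granta-519 and higher in JeKo-1, as FZR1 was.

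FBXO5 (EMI1), the inhibitor that holds the APC/C off in S and G2 phase, also fell in both lines. In Granta-519 it stood at 26.8, 27.9 and 28.2 RPKM in shCycD1, against 53.4, 53.1 and 54.9 RPKM in shCtrl. Spread within each group was small, and FBXO5 fell by 0.95 on the log2 scale (± 0.06 SE, adjusted p = 0.000187). JeKo-1 libraries had FBXO5 at 6.85, 7.07 and 8.23 RPKM in shCycD1, against 26.3, 25.5 and 28.9 RPKM in shCtrl. No library of one group reached the other, and FBXO5 fell by 1.80 ± 0.10 (adjusted p = 8.41e-06). With spike-in scaling the Granta-519 change was -0.23 (adjusted p = 0.491). GC correction took the JeKo-1 change to -1.42 (limma adjusted p = 2.84e-05).

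UBE2C, the enzyme that starts the ubiquitin chain, had the most negative change of the members in both lines, within the SEs of that of CDC20 in Granta-519. In Granta-519 it stood at 63.8, 65.8 and 69.9 RPKM in shCycD1, against 197, 224 and 182 RPKM in shCtrl. The shCycD1 mean was 33.1% of the shCtrl mean, with a log2 change of -1.58 ± 0.09 (SE, adjusted p = 0.000156), or -0.85 with spike-in scaling. JeKo-1 libraries had UBE2C at 20.9, 21.3 and 21.8 RPKM in shCycD1, against 290, 295 and 203 RPKM in shCtrl. UBE2C fell to 8.12% of shCtrl there, a log2 change of -3.57 ± 0.14 (adjusted p = 2.12e-06), and 0.228% of genes had a more negative one. The third shCtrl library was the lowest of its group for UBE2C, and also for CDC20, FZR1, UBE2S, PTTG1 and ESPL1.

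UBE2S, which lengthens the chains, was also lower in both lines. In Granta-519 it stood at 58.4, 57.1 and 60.7 RPKM in shCycD1, against 129, 136 and 103.7 RPKM in shCtrl. The groups did not overlap, and UBE2S fell by 1.05 ± 0.11 on the log2 scale (SE, adjusted p = 0.000615), or 0.32 (adjusted p = 0.302) with spike-in scaling. JeKo-1 libraries had UBE2S at 81.9, 68.7 and 62.8 RPKM in shCycD1, against 137, 119 and 89.8 RPKM in shCtrl. The highest shCycD1 library lay just under the lowest shCtrl library, and UBE2S fell by 0.68 ± 0.17 (adjusted p = 0.0088), not called with spike-in scaling (-0.55, adjusted p = 0.265).

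PTTG1 (securin) binds separase until the APC/C destroys it. In Granta-519 it stood at 61.5, 60.1 and 68.3 RPKM in shCycD1, against 125, 153 and 127 RPKM in shCtrl. The shCycD1 libraries were all lower, and PTTG1 fell by 1.08 ± 0.10 on the log2 scale (SE, adjusted p = 0.000441), or 0.36 (adjusted p = 0.25) with spike-in scaling. JeKo-1 libraries had PTTG1 at 38.4, 36.0 and 38.8 RPKM in shCycD1, against 237, 228 and 215 RPKM in shCtrl. PTTG1 fell to 16.7% of shCtrl in JeKo-1, a log2 change of -2.57 ± 0.07 (adjusted p = 7.48e-07). PTTG2 is a near-copy of PTTG1, so how reads were split between the pair is uncertain and was not tested. In Granta-519 PTTG2 stood at 156, 137 and 151 RPKM in shCycD1, against 298, 341 and 281 RPKM in shCtrl. In JeKo-1 it was at most 0.156 RPKM in any library.

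ESPL1 (separase) is the protease that cleaves cohesin. In Granta-519 it stood at 7.53, 9.04 and 8.58 RPKM in shCycD1, against 22.9, 16.0 and 26.5 RPKM in shCtrl. The shCtrl libraries ranged widely, with the second lowest, and ESPL1 fell by 1.30 ± 0.18 on the log2 scale (SE, adjusted p = 0.00191), or 0.60 (adjusted p = 0.0838) with spike-in scaling. JeKo-1 libraries had ESPL1 at 0.802, 0.970 and 0.779 RPKM in shCycD1, against 8.75, 9.08 and 8.58 RPKM in shCtrl. ESPL1 passed the filter in JeKo-1 through its shCtrl libraries alone, so a difference was built into its selection; its log2 change there was -2.79 ± 0.10 (adjusted p = 1.31e-06), and it could not be tested when any shCtrl library was left out.

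**Figure D2:**
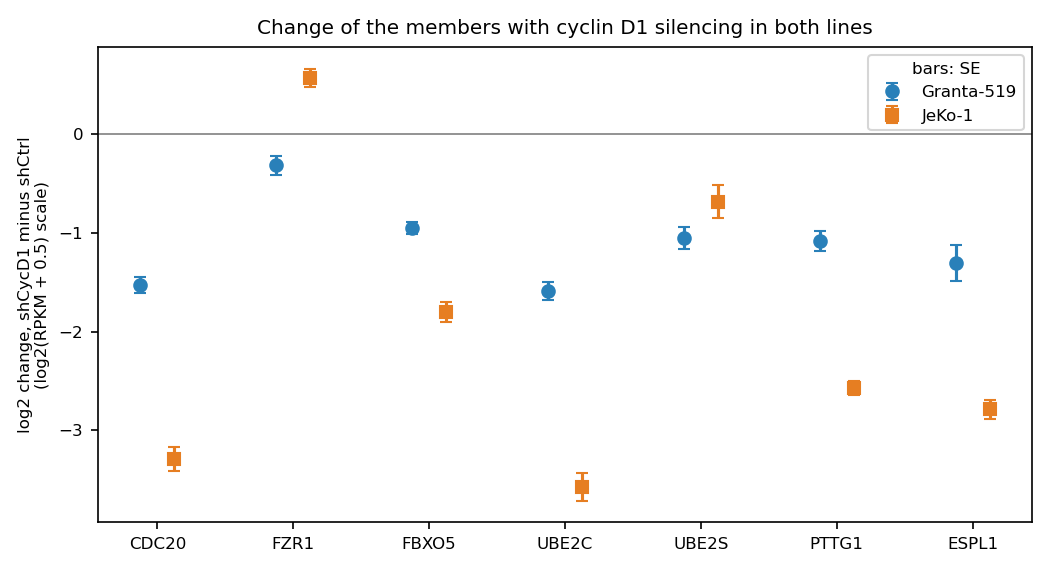
Log2 change, shCycD1 minus shCtrl, of each member in Granta-519 and JeKo-1 with bars of 1 SE, and the horizontal line at no change. All members lie below 0 except FZR1 in JeKo-1, at 0.57; with spike-in scaling FZR1 in Granta-519 lies at 0.39.

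The falls were larger in JeKo-1 for most members. Of the 7, 5 had a difference called higher (a smaller fall in Granta-519), beside 19.3% of the 10653 genes tested in both lines, and FZR1 was called lower, beside 22.6%. ESPL1 is 1 of the 5, and since its filter in JeKo-1 built in a fall there, its difference of 1.49 ± 0.21 is a description and not a test. The other Granta-519 minus JeKo-1 differences called higher were 1.76 ± 0.15 for CDC20 (SE, limma adjusted p = 6.07e-06), 1.99 ± 0.18 for UBE2C (adjusted p = 1.01e-05), 1.48 ± 0.12 for PTTG1 (5.52e-06) and 0.85 ± 0.11 for FBXO5 (0.000134). That of FZR1 was -0.89 ± 0.13 (adjusted p = 0.000285), and -0.31 (adjusted p = 0.63) with spike-in scaling. With GC correction the FZR1 difference shrank to -0.35 (limma adjusted p = 0.0267). UBE2S did not pass the test (-0.37 ± 0.21, adjusted p = 0.191). Read as log2, the JeKo-1 table would give differences of 0.84 for CDC20, 0.94 for UBE2C, 0.73 for PTTG1, 0.78 for ESPL1 and 0.36 for FBXO5, called the same way, and UBE2S would then be called as lower (-0.57, adjusted p = 0.0241). The FBXO5 difference was 0.47 with GC correction.

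The balance between pairs of members was followed as the log2 ratio of 2 members within a library, which, apart from the pseudocount, does not depend on a scaling factor shared by the library. The level of a ratio reflects the gene lengths used, so only its change is read. CDC20 over FZR1, the ratio of the activators, was 2.95, 3.0 and 3.18 in Granta-519 shCycD1, against 4.25, 4.24 and 4.26 in shCtrl. In JeKo-1 it was -1.67, -1.65 and -1.77 in shCycD1, against 2.17, 2.28 and 2.04 in shCtrl. The ratio was lower in every shCycD1 library, and the change averaged over the lines was -2.54 (exact two-sided permutation within lines, p = 0.005, the smallest the 400 regroupings allow, adjusted over 4 ratios 0.00667). FBXO5 over FZR1 changed by -0.63 in Granta-519 and -2.37 in JeKo-1, averaging -1.50, with the same exact permutation p of 0.005 and adjusted value of 0.00667. These 2 have the lowest (34.2%) and highest (64.0%) GC content of the members, and with GC correction the average was -1.23, still called. UBE2C over UBE2S changed by -0.53 in Granta-519 and -2.89 in JeKo-1, averaging -1.71, again with an exact permutation p of 0.005 and adjusted value of 0.00667. PTTG1 over ESPL1 changed by 0.22 in both lines, with overlapping groups in each, and the exact permutation test gave p = 0.18. In JeKo-1 shCycD1, ESPL1 stood at only 0.779 to 0.970 RPKM, so the pseudocount of 0.5 lowers the ratio there. Mean PTTG1 in JeKo-1 shCycD1 was 16.7% of shCtrl and mean ESPL1 9.66%, so an unchanged PTTG1 over ESPL1 is not shown. That ratio would be called with a pseudocount of 0.1 (0.45, adjusted p = 0.035) or without the second Granta-519 shCtrl library (0.37, 0.015), and with a pseudocount of 1 it was 0.015 (adjusted p = 0.92). Within a line alone, 3 against 3 libraries cannot go below an exact permutation p of 0.1, which the first 3 ratios reached. The ratios combine members whose changes are given above, and CDC20 and FBXO5 are both set over FZR1. Their permutation p-values are therefore not independent of those calls or of each other. How often other gene pairs reach 0.005 was not tested.

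**Figure D3:**
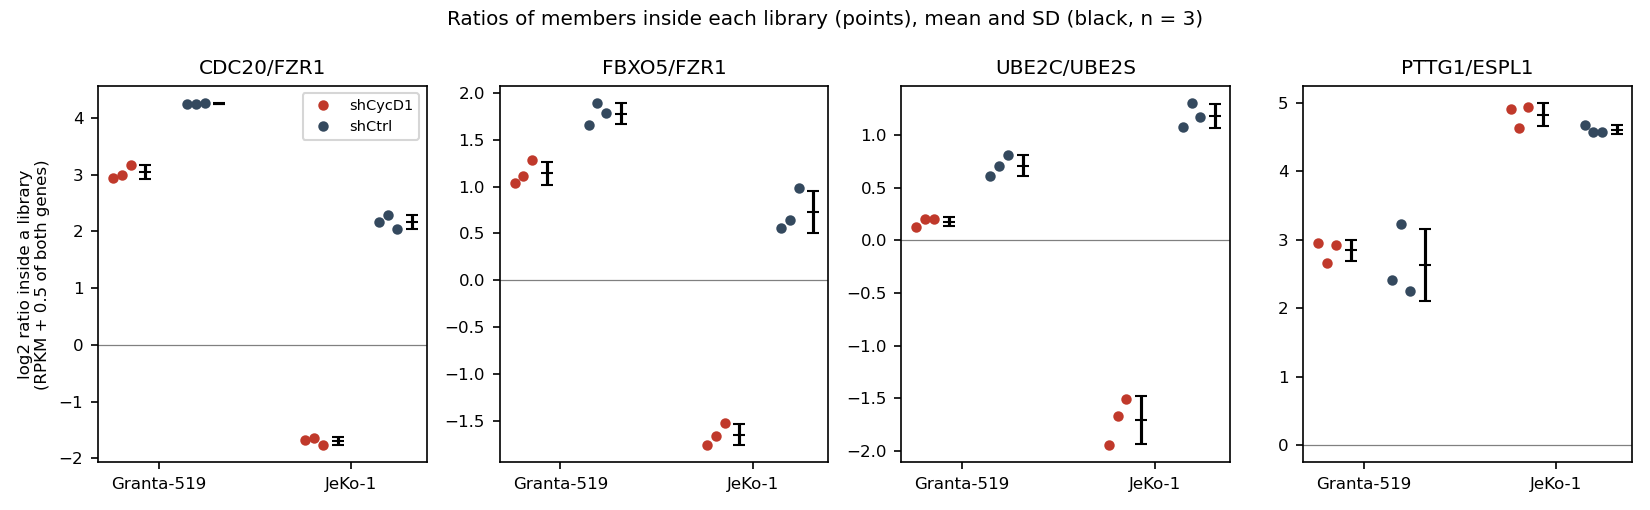
Log2 ratio of 2 members within each library, shCycD1 left of shCtrl, in Granta-519 and JeKo-1, with points for libraries and black marks for the mean and SD (n = 3). CDC20 over FZR1, FBXO5 over FZR1 and UBE2C over UBE2S are lower in all shCycD1 libraries. With the pseudocount of 0.5 used here, the groups overlap for PTTG1 over ESPL1 in both lines. ESPL1 in JeKo-1 shCycD1 lies near that pseudocount.

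Genes of the complex itself were called in both directions, beside the 18.2% lower and 22.4% higher of all tested genes in Granta-519 and the 27.8% and 36.7% in JeKo-1. Of 14 genes for APC/C subunits, the core that the activators and enzymes dock on, 5 were called lower, 2 higher and 7 not called in Granta-519, with a median of -0.17, and 7 were called lower, 2 higher and 5 not called in JeKo-1, with a median of -0.23. With spike-in scaling 4 were called higher and 0 lower in Granta-519 (median 0.50), where 7018 of 12668 genes were called higher and the median over all genes was 0.70, and limma called 0 in JeKo-1, where 1 was lower at an unadjusted p under 0.05. ANAPC15 (-0.74 and -0.92 in Granta-519 and JeKo-1), CDC27 (-0.46 and -0.53) and the catalytic RING subunit ANAPC11 (-0.35 and -0.64) fell in both lines, and CDC16 rose (0.25 and 0.27). ANAPC13 rose in Granta-519 (0.56) and was at 0.11 in JeKo-1. ANAPC4 and ANAPC10 fell in JeKo-1 (-0.57 and -0.39) and were at -0.23 and -0.03 in Granta-519, while ANAPC16 rose in JeKo-1 (0.23) and was at 0.14 in Granta-519. ANAPC1 (-0.19 and -0.04), ANAPC2 (-0.16 and 0.32), ANAPC5 (-0.07 and -0.01) and CDC26 (-0.01 and -0.18) were not called in either line. The differences between lines were called for 2 of the 14 as higher and 1 as lower, beside the 19.3% and 22.6% of all genes. Without the first JeKo-1 shCycD1 library 5 subunits were called there, all lower, in place of 9.

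The spindle checkpoint holds CDC20 back until chromosomes are attached. Of its 8 genes, 7 were tested in Granta-519, with 6 called lower, 0 higher and a median of -1.09. All 8 were tested in JeKo-1, with 6 lower, 1 higher and a median of -2.10. Over all tested genes, 18.2% were called lower and 22.4% higher in Granta-519, and 27.8% and 36.7% in JeKo-1. With spike-in scaling the Granta-519 calls were 1 lower and 1 higher, with a median of -0.40. Over all 12668 genes that scaling called 168 lower and 7018 higher there, with a median of 0.70. BUB1B (-1.33 in Granta-519 and -3.25 in JeKo-1), TTK (-1.09 and -2.83) and MAD2L1, which binds CDC20 (-1.35 and -2.59), had the largest changes averaged over the lines. MAD2L1BP, which helps take the checkpoint complex apart, was not called in either line (-0.02 and 0.11). MAD1L1 averaged 0.610 RPKM in shCycD1 and 0.583 RPKM in shCtrl in Granta-519, under the filter, and was untested there. RPKM depends on the gene length used, so this does not tell how strongly MAD1L1 was expressed. In JeKo-1 MAD1L1 rose by 0.45 (limma adjusted p = 0.00944), and this did not pass with GC correction.

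All 24 further APC/C substrates tested were called lower in both lines, beside 18.2% (Granta-519) and 27.8% (JeKo-1) of all tested genes. Their medians were -1.35 (Granta-519) and -3.35 (JeKo-1). This list, like the others, was chosen with earlier results of these data known. The largest changes averaged over the lines were those of RRM2, a ribonucleotide reductase subunit (-1.39 and -3.83), the cyclin CCNA2 (-1.46 and -3.69) and the mitotic kinase PLK1 (-1.50 and -3.67). The difference between lines was called higher for 21 of 24 and lower for 0, beside 19.3% and 22.6% of all genes. With spike-in scaling 10 were called lower in Granta-519 and 22 in JeKo-1. Over all genes, that scaling called 168 of 12668 lower in Granta-519 and 976 of 11866 in JeKo-1.

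Cohesin holds sister chromatids together and is cut by separase. Of 8 genes for cohesin and its release factors, 6 were called lower and 0 higher in Granta-519, with a median of -0.43. With spike-in scaling that median turned to 0.22 and 1 was called higher, beside 0.70 and 7018 of 12668 over all genes. In JeKo-1, 7 were called lower and 0 higher, with a median of -1.19. Without the first Granta-519 shCycD1 library, 3 of the 8 were called in that line. Over all tested genes, 18.2% were called lower and 22.4% higher in Granta-519, and 27.8% and 36.7% in JeKo-1. These shares also apply to the other APC/C regulators below. PDS5B fell in both lines (-0.44 and -1.40), as did SMC1A (-0.88 and -1.23) and SMC3 (-0.63 and -1.16). PDS5A was at -0.03 in Granta-519 and fell in JeKo-1 (-0.42), and WAPAL was called in neither line (-0.00059 and -0.23). Other APC/C regulators, 5 of 6 tested in each line, had 2 called lower and 1 higher in Granta-519 (median -0.13, or 0.58 with spike-in scaling) and 4 lower and 0 higher in JeKo-1 (median -0.42). USP44, 1 of those 4, passed the filter there through its shCtrl libraries alone. The deubiquitinase USP37 fell in both (-0.72 and -1.53), and the conjugating enzymes were at 0.38 and 0.04 for UBE2D1 (called higher in Granta-519), -0.13 and -0.38 for UBE2D2, and -0.05 and -0.42 for UBE2D3 (both called lower in JeKo-1).

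**Figure D4:**
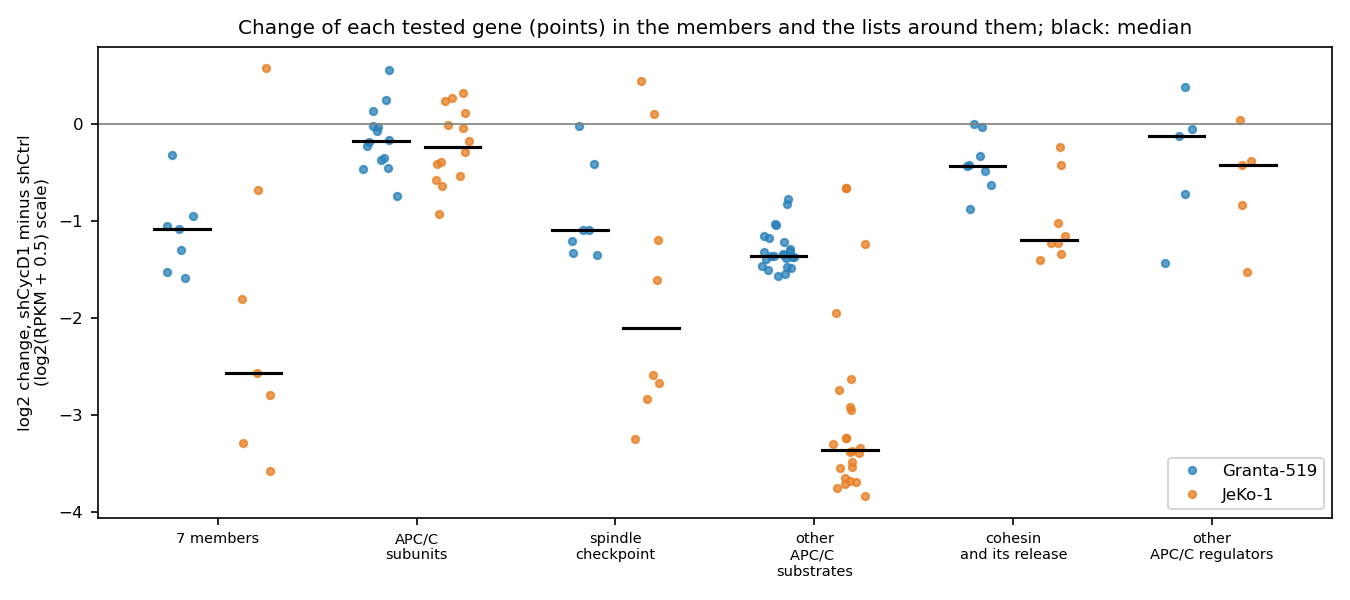
Log2 change, shCycD1 minus shCtrl, of each tested gene in the 7 members and 5 context lists, in Granta-519 and JeKo-1, with a bar at each list's median. Of the 5 context lists, the substrates and spindle checkpoint have the lowest medians, -1.35 and -1.09 in Granta-519 and -3.35 and -2.10 in JeKo-1, and the members have -1.08 and -2.57; with spike-in scaling the Granta-519 checkpoint median is -0.40, and the subunit, cohesin and other regulator medians turn to 0.50, 0.22 and 0.58, beside 0.70 over all genes.

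**Figure D5:**
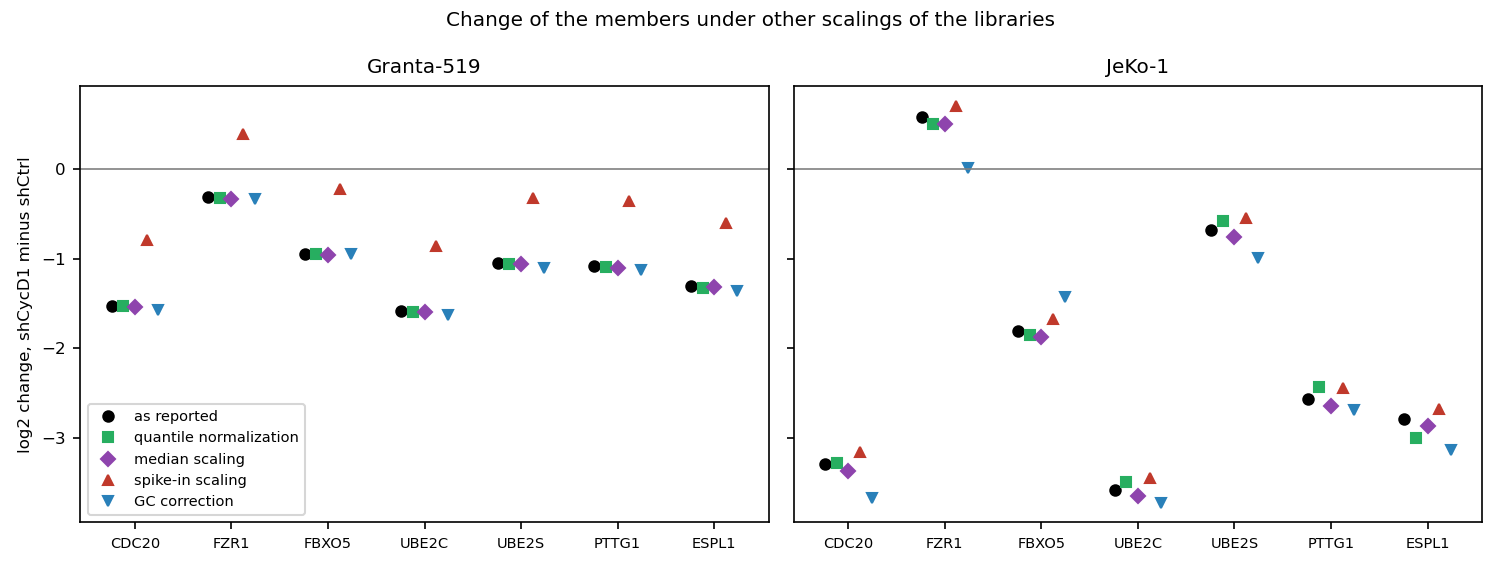
Log2 change of each member in Granta-519 and JeKo-1 under the scaling used here and under spike-in scaling, quantile normalization, median scaling and GC correction. Spike-in scaling moves every Granta-519 change up, FZR1 to 0.39, and GC correction takes FZR1 in JeKo-1 to 0.0065.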

How the data were processed

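Gene values of 12 libraries were analysed. Tools named in the submitters' processing notes are FastQC, TopHat2 2.1.1 and limma 3.9, with the builds GRCh37 and hg19. For the counter, the annotation and the transform, the tool or method is not given in the sources used here. The authors deposited 1 table per cell line, titled RPKM, and the deposited values were taken to be natural log values of RPKM + 1. For Granta-519, values times the genomic span were whole multiples of 1 step in 73.2 to 76.8% of cases with the natural log (tolerance 0.1). With base 2 this was 45.4 to 52.7%. Chance is 20% for a fixed step, but the step was the best of many tried, so chance is higher here. With the longest transcript in place of the span, the natural log gave 25.1 to 26.6%. For JeKo-1 no base passed 38.1%, and the natural log was taken because spike-in logs then spread alike in both lines (median SD ratio 0.964, against 0.730 with base 2).

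Each line was fitted with limma 3.58.1 in R 4.3.3 (trend) on log2(RPKM + 0.5), and the 12 libraries in a 4-group fit for differences between lines. The fit was tested on simulated data. The members and lists were chosen with earlier results of these data known. Genes named are the members, CCND1, each list's genes not called or called against its majority, the 3 of each list with the largest average change, and the gene most like each member; PTTG2, FBXO43 and USP44 were added after their values were seen. Sequences are from RefSeq (GRCh38.p14). GC content came from the reference's longest transcripts. No deposited column was left unmapped.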

Additional observations from a re-analysis of the deposited data

Results flagged for a closer look

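The change with shCycD1 differed between the lines, by a test of the difference itself (4-group limma fit, adjusted p under 0.05), for 21 of the genes named. The values are log2 differences, Granta-519 minus JeKo-1, and a positive one is a smaller fall or a larger rise in Granta-519. Among the members they were 1.76 for CDC20, -0.89 for FZR1, 0.85 for FBXO5, 1.99 for UBE2C, 1.48 for PTTG1 and 1.49 for ESPL1. ESPL1 passed the JeKo-1 filter through its shCtrl libraries alone, so a fall there was built in and its difference is a description only. That of FZR1 was not called with spike-in scaling and shrank to -0.35 with GC correction. CCND1 itself differed by 0.55 (adjusted p = 0.0306), which turned to -0.16 when JeKo-1 was read as log2, and was not called with 7 of the 12 libraries left out in turn. The CCND1 difference was also not called with quantile normalization (0.38, limma adjusted p = 0.0886) or with spike-in scaling (1.14, adjusted p = 0.061).

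Among APC/C subunits the differences were -0.48 for ANAPC2, 0.37 for ANAPC10 and 0.45 for ANAPC13. Checkpoint genes differed by 1.24 for MAD2L1, 1.92 for BUB1B and 1.74 for TTK. The substrates named differed by 2.22 for CCNA2, 2.17 for PLK1 and 2.44 for RRM2. Cohesin genes differed by 0.52 for SMC3, 0.39 for PDS5A and 0.96 for PDS5B, and other regulators by 0.81 for USP37 and 0.38 for UBE2D3. Groups of 3 libraries are too small to single out a library by its distance from the others.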

How the results depend on the processing

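For the main counts and ratios, 163 alternative values kept their call or stayed within 1.5 times the count, and 1 count and 3 values of a ratio did not. With spike-in scaling the members called in Granta-519 numbered 2. The PTTG1 over ESPL1 ratio was called with a pseudocount of 0.1 (0.45) and with quantile normalization (0.36), was 0.015 with a pseudocount of 1, and ranged from 0.12 to 0.37 with single libraries left out. With spike-in scaling FZR1 in Granta-519 turned to 0.39 and the UBE2S difference to 0.23. The CCND1 difference turned to -0.16 with JeKo-1 read as log2, and the FZR1 change averaged over both lines, 0.13, turned to -0.17 with GC correction, alone or with the replicate block, and was 0.55 and called with spike-in scaling (adjusted p = 0.0252). The cause was not tested in any of these.

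Spike-in scaling also moved the counts over all genes, to 168 lower and 7018 higher in Granta-519 (2303 and 2840 without it) and to 976 and 2398 in JeKo-1 (3303 and 4357). GC correction gave 3661 lower and 3454 higher in JeKo-1. Same-numbered libraries did not deviate together in Granta-519 (r of 0.0055, -0.12 and 0.033). In JeKo-1 r was 0.187, 0.0949 and 0.103, above the -0.102 to 0.00053 of differently numbered libraries, so pairing there is not settled. The sources used here name no block, so the numbers were left out of the main fit in both lines. With a block for the replicate number, 3806 genes were called lower and 4901 higher in JeKo-1, and 1903 and 2285 in Granta-519. With the replicate block, 6 members were called in Granta-519, without FZR1 (-0.31, adjusted p = 0.0646), and 7 in JeKo-1. Library weights gave 11 called APC/C subunits in Granta-519, against 7 without them. Depth is uncertain in both tables, so no counting interval is given.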

Other observations

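For each member, the gene whose log2 values were most like its own across the 6 libraries of each line was found among 10653 genes, by the lower of the 2 Pearson correlations. These were PLK1 for CDC20 (0.999), CDC25A for FBXO5 (0.998), CENPE for ESPL1 (0.998), HMGN2P46 for UBE2C (0.997), NAP1L1 for PTTG1 (0.996), STX10 for UBE2S (0.983) and WFS1 for FZR1 (0.964). The libraries of a line fall into 2 groups, so these values mostly follow the group difference, and no p is given.

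FBXO43, a relative of FBXO5 known from meiosis, fell by 1.43 on the log2 scale in Granta-519 (adjusted p = 0.00497) and was untested in JeKo-1. USP44, a deubiquitinase, averaged 0.919 RPKM in JeKo-1 shCycD1 and 2.09 RPKM in shCtrl, a log2 change of -0.84 (adjusted p = 0.00679), and was untested in Granta-519. It passed the filter through its shCtrl libraries alone.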
